A study of Trametes sanguinea with 15 samples.

Results

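Of the 11782 gene models of *Pycnoporus sanguineus* CIRM-BRFM 1264 in the deposited normalised table, 59 were transcribed at their highest level on maltose by a fixed rule. The rule asked for a maltose mean of at least 100 normalised counts, a maltose mean at least 2.5 times each of the other 4 group means, and a lowest maltose library above all 12 other libraries. A normalised count is the read count of a gene divided by the size factor of its library. These values chose the genes, so the levels on maltose against the other carbon sources are given as a description, with no test.

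Maltose is a disaccharide of glucose that fungi take up and use readily. The other carbon sources of the study are polymers that a white-rot fungus must first cut outside the cell, with secreted enzymes acting on cellulose, hemicelluloses and lignin. In fungi in general, readily used sugars repress many of the genes needed for polymers. Whether the 59 genes have a part in such regulation was not tested. The files name each gene model by a protein ID only. Gene names, roles and sequences of these 59 genes were not used here, and each gene is therefore described by its transcript levels and the length of its model.

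Polyadenylated RNA was sequenced from mycelium of day 3 shaken liquid cultures, in 5 groups of 3 libraries. The maltose cultures held 20 g/l of maltose. Per the labels, all other cultures held 2.5 g/l of maltose together with 15 g/l of a substrate, so maltose was present in all 15 cultures, although the study's methods speak of sole carbon sources. The substrates were milled aspen wood, ground wheat straw, Avicel (a crystalline cellulose) and a mixture of xylans and galactomannans, the polysaccharides of hemicellulose. The maltose cultures thus differed from all others both in the amount of maltose and in having no substrate, and these cannot be told apart. The 5 groups share the single strain CIRM-BRFM 1264. The study describes independent cultures for maltose, Avicel, wheat straw and aspen. No such statement covers xylan-galactomannan in the sources used here, and spread and p-values there may be technical. In these whole-mycelium samples, fewer cells of a kind and less RNA per cell cannot be told apart.

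Total counts per library ranged from 24209984 to 50428442. In 3 groups a single library stood apart from the other pair. Pearson's r across the 11724 genes tested, a description on log2(CPM + 1) values, was 0.985 between maltose 1 and maltose 2 but 0.952 and 0.975 with maltose 3. It was 0.998 between Avicel 2 and Avicel 3 but 0.961 and 0.964 with Avicel 1, and 0.987 between xylan-galactomannan 1 and xylan-galactomannan 3 but 0.940 and 0.954 with xylan-galactomannan 2. In aspen and wheat straw all pairs lay between 0.986 and 0.994. Counts of called genes are given with and without these 3 libraries.

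Each condition of the rule removed a different number of genes. A maltose mean of at least 100 was met by 9468 genes, the 2.5-fold margin by 94 and the separation of the libraries by 246, or 2.09% of all genes in the table. Level and margin together left 83 genes, and the separation then removed 24 of them. The same rule selected 97 genes for aspen, 92 for Avicel, 82 for xylan-galactomannan and 24 for wheat straw.

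The threshold on the ratio lay in a dense range. Gene 1585790 was just inside, with a maltose mean 2.53 times its highest substrate mean, followed by 1684003 at 2.57 and 1591984 at 2.60. Genes 1580566 and 1594790 were just outside, both at a ratio of 2.48, and 1576117 followed at 2.45. The lower limit on level excluded few genes. Gene 1657241 was just inside, with a maltose mean of 131 normalised counts, and 1587113, just outside, had 91.1. The separation was narrow for 3 members picked out after their values were seen. Gene 1598431 held 21481 normalised counts in its lowest maltose library and 19583 in wheat straw 1. For 1589678 these values were 6399 and 5910 (aspen 1), and for 1688149 they were 41.3 and 37.2 (aspen 3).

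The 59 genes covered more than 3 orders of magnitude on maltose. Their maltose means ran from 131 to 423110 normalised counts, with a median of 4313, against a median of 1269 over the 9468 genes with a maltose mean of at least 100. A mean of at least 1000 was reached by 42 genes and one of at least 10000 by 18. The shares of all genes at these levels were not computed. Of the 11782 genes in the table, ranked by maltose mean, the first 100 held 6 of the 59 genes and the first 10 held 1. Per kilobase of gene model, the median level on maltose was 2148 normalised counts, against 868 over the genes with a mean of at least 100.

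The margin over the substrates was mostly moderate. In 48 of the 59 genes the highest substrate mean was 10 to 40% of the maltose mean, in 9 it was 1 to 10%, and in 2 (1545845 and 1614574) it was under 1%. The ratio of the maltose mean to the highest substrate mean ranged from 2.53 to 332, with a median of 3.96. The genes with wide margins were found at low, medium and high maltose means alike.

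**Figure D1:**
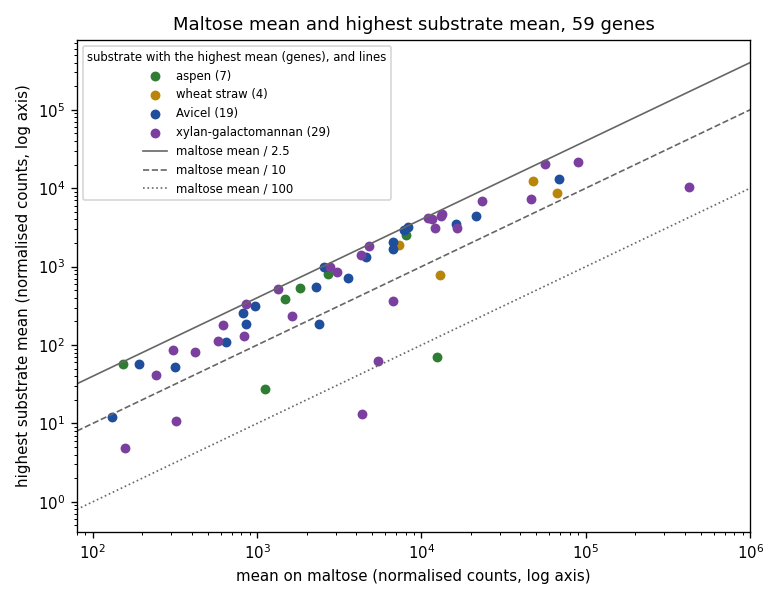
Mean on maltose (horizontal, normalised counts, log axis) against the highest of the 4 substrate means (vertical, normalised counts, log axis) for each of the 59 genes, coloured by the substrate that gave that highest mean. The lines mark ratios of 2.5, 10 and 100, and 48 genes lie between the first 2 lines.

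Together the 59 genes took up a small share of all counts. On maltose they held 2.72% ± 0.84 (SD, n = 3) of the counts, with 2.84% in maltose 1, 1.82% in maltose 2 and 3.49% in maltose 3. On the substrates they held 0.221% ± 0.0129 on aspen, 0.226% ± 0.0389 on Avicel, 0.273% ± 0.0448 on wheat straw and 0.319% ± 0.0682 on xylan-galactomannan (SD, n = 3). In maltose 3 a single gene, 1569640, made up most of this share. It held 2.54% of that library, against 0.253% of maltose 1 and 0.206% of maltose 2. Without it the other 58 genes held 2.59%, 1.62% and 0.946% of the 3 maltose libraries, so that maltose 3 was then the lowest of the 3.

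Gene 1569640 had the highest maltose mean of the group and the third highest of all genes. Its normalised counts were 91631, 76402 and 1101296 in maltose 1 to 3. On xylan-galactomannan they were 27684, 1156 and 1760, on Avicel 4861, 475 and 462, on wheat straw 1556, 638 and 428, and on aspen 1166, 349 and 301. The mean of 423110 thus rested on maltose 3, and the ratio to the highest substrate mean fell from 41.5 to 8.24 without that library. In each substrate group the first library was the highest, and xylan-galactomannan 1 came within 2.76-fold of the lowest maltose library.

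Gene 1666412 followed, with 110847, 87568 and 69443 normalised counts on maltose. It reached 8170, 38572 and 18079 on xylan-galactomannan and 2242, 21060 and 17568 on Avicel, but only 2959 to 4168 in the 6 libraries of aspen and wheat straw. Both polysaccharide groups were thus uneven, with Avicel 1 below all aspen and wheat straw libraries. Gene 1591626 held 94900, 72248 and 39117 on maltose and 5620, 15458 and 17625 on Avicel, and no more than 6889 in any other library.

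Gene 1598431 had a high first library on maltose, 157584 normalised counts, against 21481 and 22611 in the other pair. Wheat straw held 19583, 5349 and 1114, and Avicel a narrow 3610, 4478 and 3827. Aspen, at 320 to 440, and xylan-galactomannan, at 199 to 542, were lower than every Avicel and wheat straw library. Among the 55 genes whose 4 substrate means were all at least 10, it had the widest span between substrates, with a highest mean 25.2 times the lowest.

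Gene 1605932 held 67816, 51924 and 19749 normalised counts on maltose and 13988, 2005 and 5848 on xylan-galactomannan. The other 9 libraries held 324 to 1422, all below the lowest xylan-galactomannan library. Gene 1615971 held 79936, 48038 and 40636 on maltose and 24681, 25492 and 11186 on xylan-galactomannan, its next group. Gene 1636119 held 43347, 61412 and 37954 on maltose, with wheat straw next at 15787, 11736 and 9772. Of the 10 highest genes, 6 had xylan-galactomannan as their second group, 2 had Avicel and 2 had wheat straw.

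The remaining 3 of the 10 highest genes were steadier among the substrates or lower in them. Gene 226433 held 18009 to 26664 normalised counts on maltose and 4546 to 7239 in all 12 substrate libraries, a highest substrate mean only 1.43 times the lowest. Gene 1681820 held 25577, 24237 and 14430 on maltose and 1389, 1265 and 1091 on xylan-galactomannan, the lowest group. Gene 1591856 held 31559 in maltose 1 but 8063 and 9697 in the others, and at most 3700 on a substrate.

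**Figure D2:**
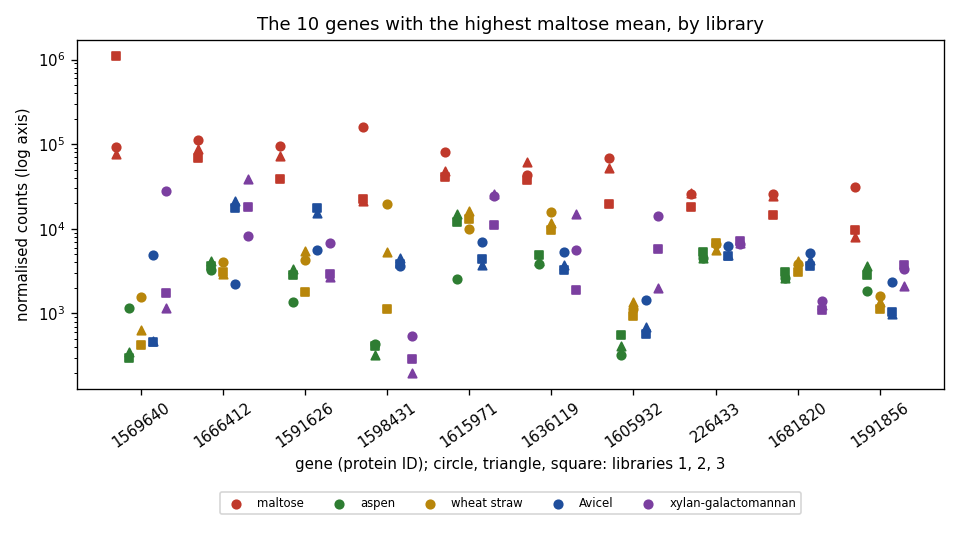
Normalised counts (log axis) of the 10 genes with the highest maltose means in each of the 15 libraries, with colour for the group and circle, triangle and square for libraries 1, 2 and 3. All 3 maltose points lie above the other 12 for every gene, as the rule asks, and 1569640 reaches 1101296 in maltose 3.

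Among the genes with the widest margins, 1614574, 1545845, 1651739 and 1688149 had low levels on all substrates. Gene 1614574 held 24720, 6444 and 5942 normalised counts on maltose and 13 to 91 in the 12 substrate libraries. Its lowest maltose library was 65.2 times its highest substrate library, and its maltose mean 174 times its highest substrate mean, on aspen. All 3 maltose libraries were thus far above every substrate library. Without maltose 3, its lowest maltose library, the ratio was 220, and leaving out the lowest can only raise it. The ratio without maltose 1, its highest, was not computed.

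Gene 1545845, the shortest of the 59 at 252 bases, had the largest ratio, 332, over a xylan-galactomannan mean of 13.0. The ratio was 490 without maltose 3 and 503 without xylan-galactomannan 2. It held 7119 and 5653 normalised counts in maltose 1 and maltose 2 but 196 in maltose 3. In raw counts, the substrate libraries held 0 to 26 reads, and 6 of the 12 held at most 3, a floor that covers counting error only. Gene 1651739 showed the same order on maltose, with 9771, 6296 and 195, over 4 to 113 on the substrates and a ratio of 87.5. Gene 1688149 held 2101, 1184 and 41.3, over 8 to 37.2 on the substrates, so that maltose 3 lay close to aspen 3.

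The other wide margins were 41.5 for 1569640, 32.1 for 1543056, 29.9 for 1586820 and 18.2 for 1604391. Gene 1604391 was well above the floor throughout, with 9963, 7071 and 3068 normalised counts on maltose and 61 to 508 on the substrates. Genes 1543056 and 1586820 were low, with at most 8 and 31 raw counts in any substrate library, and 7 and 6 of those libraries at or under 3 counts. Of the 59 genes, 4 had any substrate library at or under 3 counts (these 2, 1545845 and 1657241). Maltose 3 was the lowest maltose library for 7 of the 8 genes with the largest ratios.

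Maltose 3 was low for many other members as well. It was the lowest of the maltose libraries for 42 of the 59 genes, or 71.2%, against 39.0% of the genes with a maltose mean of at least 100. Maltose 1 was the highest for 36 genes (61.0%), maltose 2 for 16 (27.1%) and maltose 3 for 7 (11.9%). Over the genes with a maltose mean of at least 100 these shares were 34.6, 21.5 and 43.9%. The median ratio of maltose 3 to maltose 1 was 0.564 over the 59 genes and 1.02 over the genes with a mean of at least 100. The corresponding ratios to maltose 2 were 0.675 and 1.02.

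The spread on maltose was wider than on the substrates. The median coefficient of variation over the maltose libraries was 37.2%, against 17.2% over the genes with a mean of at least 100. On the substrates it was 18.8% on aspen, 19.3% on wheat straw, 26.8% on Avicel and 26.4% on xylan-galactomannan, over the 55 to 57 members with a mean of at least 10 there. The coefficient over all genes was not computed for the substrate groups. The rule uses the maltose mean, which a single high library can raise, so the choice of genes may bear on their spread there. The highest maltose library exceeded the lowest more than 2-fold in 32 genes and more than 5-fold in 11. The shares of all genes with such differences were not computed. The largest coefficients of variation were those of 1569640 (139%), 1598431 (116%) and 1562868 (105%). Gene 1562868 held 28333, 8580 and 2169 normalised counts, an ordering shared with many of the others.

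Other members were very even on maltose. Gene 1759031 held 4314, 4377 and 4247 normalised counts, a coefficient of variation of 1.503%, and 641 to 1698 on the substrates. Gene 1596194 held 4652, 4255 and 4923, and 1598375 held 3825, 3685 and 3149, with coefficients of 7.29% and 10.05%. For these genes the maltose level did not differ between maltose 3 and the other pair beyond 1.22-fold.

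**Figure D3:**
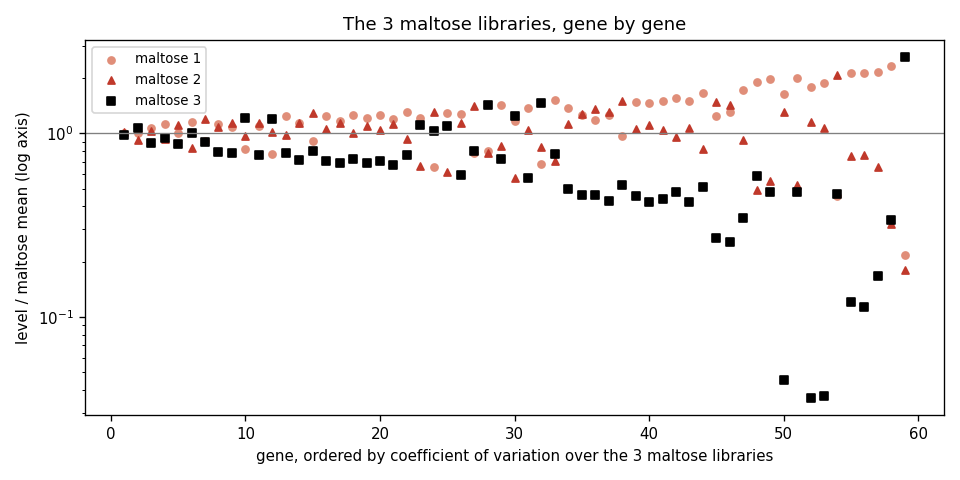
Level of each of the 59 genes in maltose 1, maltose 2 and maltose 3 divided by the maltose mean of the gene (vertical, log axis), with genes ordered by their coefficient of variation. Maltose 3 (black squares) is the lowest library for 42 genes and lies far under the others for a few genes on the right, while for 1569640, the last gene, it is the highest.

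Among the substrates, xylan-galactomannan most often came closest to maltose on the size-factor scale. It gave the second highest mean for 29 of the 59 genes, or 49.2%, whereas it was the highest of the 4 substrates for 28.8% of all genes in the table. Avicel came second for 19 genes (32.2%, against 21.7% of all genes), aspen for 7 (11.9% against 29.2%) and wheat straw for 4 (6.78% against 20.2%). Without maltose 3, Avicel 1 and xylan-galactomannan 2, an alternative chosen after seeing the data, these numbers were 26 for xylan-galactomannan, 21 for Avicel, 7 for aspen and 5 for wheat straw. The lowest mean was on wheat straw for 20 genes, on Avicel for 15, on aspen for 14 and on xylan-galactomannan for 10. These ranks were not counted under other scalings of the libraries. As given below, the median differences of aspen from Avicel and from xylan-galactomannan changed sign with scaling by library totals.

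On the size-factor scale, the typical residual level was lowest on wheat straw and highest on xylan-galactomannan. The median over the 59 genes was 17.7% of the maltose mean on xylan-galactomannan, 16.5% on Avicel, 15.4% on aspen and 11.8% on wheat straw. Levels under 10% of the maltose mean were seen for 23 genes on Avicel, 22 on wheat straw, 21 on aspen and 16 on xylan-galactomannan. Per library, the median was lowest in wheat straw 3 (10.1%) and highest in xylan-galactomannan 1 (19.2%).

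**Figure D4:**
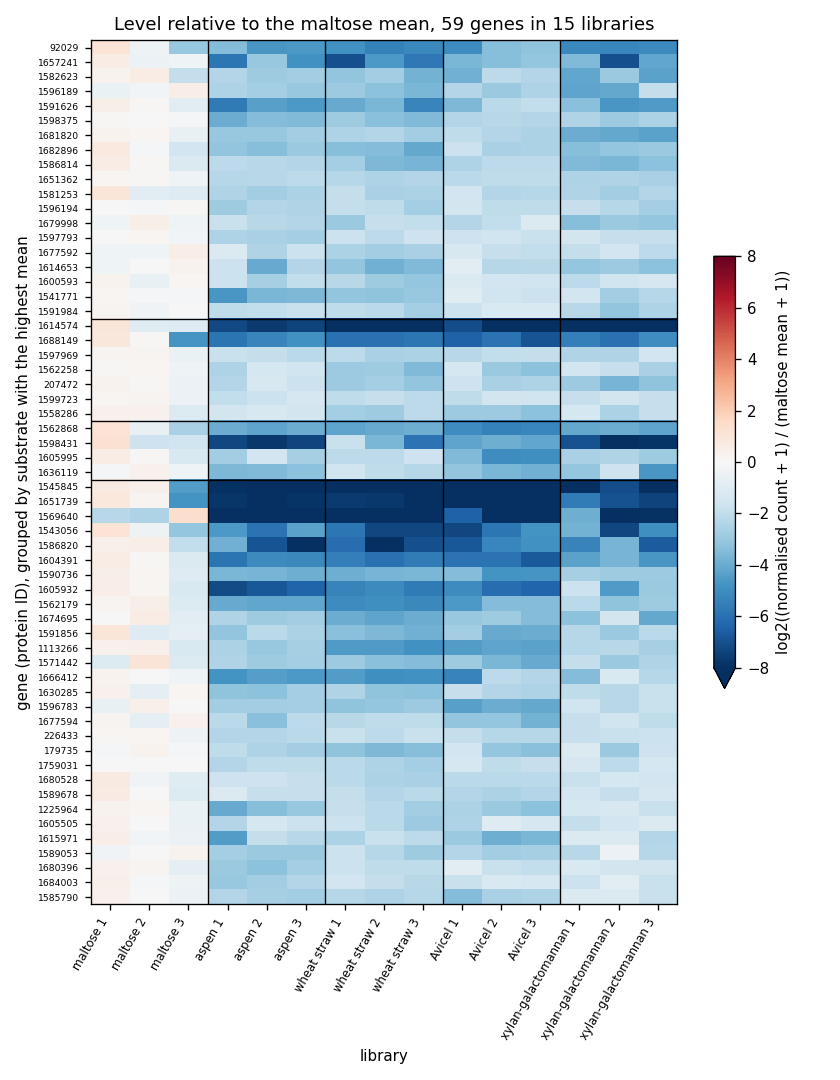
Level of the 59 genes (rows) in the 15 libraries (columns) relative to the maltose mean of the gene, as log2 of the ratio after adding 1 normalised count, with rows grouped by the substrate with the highest mean. Blue marks levels under the maltose mean, the colour scale ends at -8, and maltose 3 is blue for 1545845, 1651739 and 1688149.

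Differences among the substrates were not used by the rule beyond the limit it sets on the highest one, and they were tested with edgeR's quasi-likelihood test. A gene was called at a Benjamini-Hochberg adjusted p under 0.05, taken over all 11724 genes, with an absolute log2 fold change above 1. The test reports no SE. Each SE below is the absolute log2 fold change divided by the square root of the F statistic of the test. Among the 4 substrates as a whole, 30 of the 59 genes were called, or 50.8%, close to the 46.3% of all genes. The count was 36 (61%, beside 53.6% of all genes) without the 3 libraries that stood apart. Of the 59 genes, 57 also passed the filter on low counts in the 12 substrate libraries by themselves. Genes 1545845 and 1543056 entered the test only through their maltose libraries. The maltose libraries entered the spread estimate of the main fit. With the substrate libraries only, 35 of the 57 were called, or 61.4%, beside 46.8% of all genes. In that fit 12.3% were called between aspen and wheat straw (beside 13.2% of all genes) and 22.8% between aspen and Avicel (beside 27.9%). It called 35.1% between aspen and xylan-galactomannan (beside 26.7%) and 21.1% between wheat straw and Avicel (beside 13%). Between xylan-galactomannan and wheat straw it called 26.3% (beside 21.9%), and between xylan-galactomannan and Avicel 40.4% (beside 13.9%). In the main fit, 34 of the 59 genes were called in at least 1 of the 6 contrasts between 2 substrates (57.6%, beside 49.5% of all genes). In 3 or 4 contrasts 16 were called (27.1%, beside 18.8%), and 0 in 5 or 6 (beside 1.95%). The contrasts share groups, so their counts are not independent of each other.

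**Figure D5:**
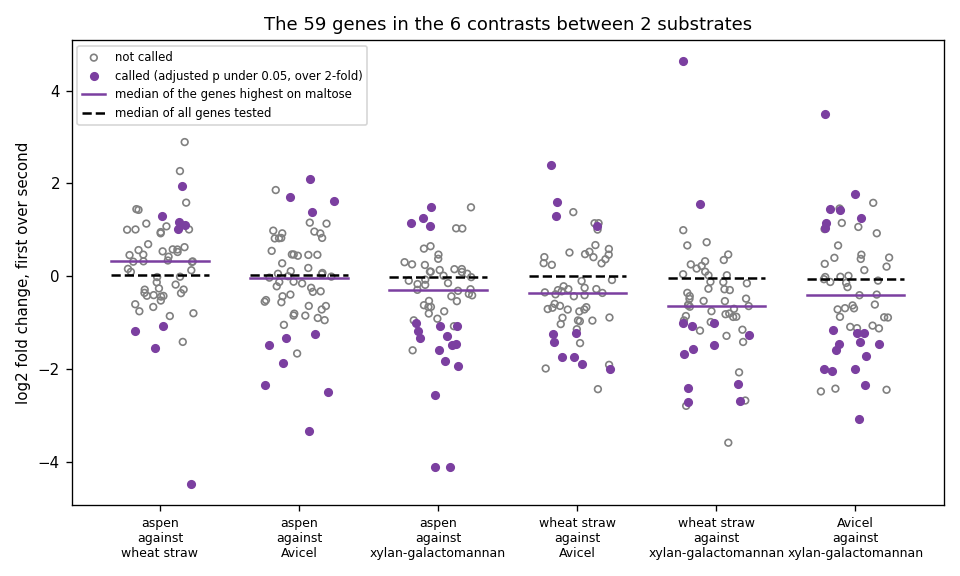
Log2 fold change (first over second substrate) of the 59 genes in the 6 contrasts between 2 substrates, with called genes filled, the median of the 59 genes as a solid line and the median of all genes tested as a dashed line. Called genes lie mostly under 0 in the contrasts with xylan-galactomannan, and the highest and lowest filled points, at 4.63 and -4.48, are both 1598431.

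The widest departure from the background was found between Avicel and xylan-galactomannan. Of the 59 genes 20 were called, or 33.9%, beside 13.6% of all genes. On xylan-galactomannan 13 genes were higher (9.1% of all genes) and on Avicel 7 were higher (4.53% of all genes). The median log2 fold change was -0.39 over the 59 genes and -0.05 over all genes, but it was -0.15 over the 59 genes without Avicel 3, -0.13 without xylan-galactomannan 2 and -0.10 without the 3 libraries that stood apart. The count was 13 (22.0%, beside 10.4% of all genes) without Avicel 2, 12 (20.3%, beside 11.3%) without Avicel 3 and 28 (47.5%, beside 21.3%) without the 3 libraries that stood apart.

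On xylan-galactomannan the largest increases over Avicel were those of 1605932 and 1596783. Gene 1605932 was 8.38-fold higher (log2 fold change of Avicel over xylan-galactomannan -3.07, SE 0.65, adjusted p = 0.0044, edgeR). Without xylan-galactomannan 1 it was 4.43-fold higher and without the 3 libraries that stood apart 15.6-fold, and with only the 6 libraries compared the call was lost (adjusted p = 0.0514, edgeR). Gene 1596783 was 5.07-fold higher (-2.34, SE 0.24, adjusted p = 2.0e-05, edgeR). Its normalised counts were 1020, 653 and 893 on xylan-galactomannan, 438 to 457 on aspen, 331 to 398 on wheat straw and 151 to 190 on Avicel. These 4 ranges did not overlap, and the gene thus had a graded level among the substrates.

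On Avicel the largest increases over xylan-galactomannan were those of 1598431 and 1681820. Gene 1598431 was 11.2-fold higher (log2 fold change 3.49, SE 0.96, adjusted p = 0.0171, edgeR), a call that was lost without xylan-galactomannan 3 (adjusted p = 0.0587, edgeR). Gene 1681820 was 3.43-fold higher (1.78, SE 0.23, adjusted p = 1.5e-04, edgeR), with 3640 to 5225 normalised counts on Avicel and 1091 to 1389 on xylan-galactomannan.

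Between aspen and xylan-galactomannan, 18 of the 59 genes were called (30.5%, beside 26.2% of all genes). Xylan-galactomannan was higher in 14 (14.7% of all genes) and aspen in 4 (11.5% of all genes), with a median log2 fold change of -0.29 over the 59 genes. Without the 3 libraries that stood apart 19 were called (32.2%, beside 31.8% of all genes). Gene 1605932 was 17.3-fold higher on xylan-galactomannan (log2 fold change -4.11, SE 0.68, adjusted p = 4.7e-04, edgeR), with 324 to 554 normalised counts on aspen, and 9.17-fold higher without xylan-galactomannan 1. Gene 1569640 had almost the same estimate (-4.11, SE 1.52, adjusted p = 0.0412, edgeR), but its groups overlapped and the value rested on xylan-galactomannan 1. Without that library its log2 fold change was -1.26 (adjusted p = 0.447, edgeR). The call was also lost without aspen 1, aspen 2, aspen 3, wheat straw 2 or wheat straw 3, with adjusted p from 0.0501 to 0.121 by edgeR, and with only the 6 libraries compared (adjusted p = 0.0545, edgeR).

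On aspen, 207472 was 2.83-fold higher than on xylan-galactomannan (log2 fold change 1.501, SE 0.33, adjusted p = 0.0027, edgeR). Its normalised counts were 529, 1093 and 817 on aspen and 355, 206 and 290 on xylan-galactomannan. Gene 1586814 was 2.37-fold higher (1.25, SE 0.36, adjusted p = 0.0135, edgeR), with 3193 to 3734 on aspen and 1277 to 1681 on xylan-galactomannan. The groups did not overlap for either gene.

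Between wheat straw and xylan-galactomannan, 13 of the 59 genes were called (22.0%), close to the 21.5% of all genes. Of these, 11 were higher on xylan-galactomannan (11.9% of all genes) and 2 on wheat straw (9.6% of all genes). The median log2 fold change of -0.64 was the lowest of the 6 contrasts, beside -0.04 over all genes. Genes 1605932 and 1666412 were 6.497-fold and 6.41-fold higher on xylan-galactomannan (log2 fold changes -2.70, SE 0.64, and -2.68, SE 0.67, with adjusted p of 0.0051 and 0.0065, edgeR). The genes higher on wheat straw were 1598431 (24.8-fold, log2 fold change 4.63, SE 1.01, adjusted p = 0.0031, edgeR) and 1681820 (2.95-fold, 1.56, SE 0.23, adjusted p = 2.6e-04, edgeR). Without wheat straw 1 the difference of 1598431 was 9.31-fold. That of 1605932 was 3.44-fold without xylan-galactomannan 1, and that of 1666412 was 3.86-fold without xylan-galactomannan 2. The count of called genes was 8 (13.6%, beside 18.1% of all genes) without wheat straw 2 and 19 (32.2%, beside 28.2%) without the 3 libraries that stood apart.

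Between aspen and Avicel 11 of the 59 genes were called (18.6%, beside 27.6% of all genes). Avicel was higher in 7 (12.8% of all genes) and aspen in 4 (14.8% of all genes). Without the 3 libraries that stood apart the majority turned, with 9 higher on aspen and 7 on Avicel (27.1% called, beside 28.4% of all genes). Gene 1598431 was 10.1-fold higher on Avicel (log2 fold change -3.33, SE 0.95, adjusted p = 0.0117, edgeR). Gene 1541771, a model of 273 bases, was 5.63-fold higher on Avicel (-2.49, SE 0.34, adjusted p = 8.1e-05, edgeR), with 4151, 2759 and 2566 normalised counts against 331, 659 and 680 on aspen. On aspen, 1605995 was 4.30-fold higher (2.10, SE 0.50, adjusted p = 0.0043, edgeR) and 1558286 was 3.25-fold higher (1.70, SE 0.41, adjusted p = 0.0046, edgeR). Without Avicel 1 the difference of 1605995 was 6.73-fold. Gene 1558286 is among the lowest members, with 54 to 62 normalised counts on aspen and 15 to 19 on Avicel.

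Between wheat straw and Avicel, 11 of the 59 genes were called (18.6%, beside 12.6% of all genes), 7 higher on Avicel (4.91% of all genes) and 4 on wheat straw (7.68% of all genes). Gene 1605995 was 5.25-fold higher on wheat straw (log2 fold change 2.39, SE 0.51, adjusted p = 0.0049, edgeR), with 1675 to 2316 normalised counts against 229 to 624 on Avicel, and 8.23-fold higher without Avicel 1. The count depended on single libraries. It was 2 without wheat straw 3 (3.39%, beside 9.25% of all genes), 4 without wheat straw 2 (6.78%, beside 10.2%) and 6 without Avicel 3 (10.2%, beside 10.7%). It was 7 without Avicel 2 (11.9%, beside 11.3%) or without aspen 3 (11.9%, beside 11.9%). The share of called members thus exceeded that of all genes only with some sets of libraries. Without the 3 libraries that stood apart 14 were called (23.7%, beside 15.1%).

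The other named genes of this contrast were close to the threshold. Gene 1636119 was 3.05-fold higher on wheat straw (log2 fold change 1.61, SE 0.52, adjusted p = 0.0384, edgeR). Its call was lost without any of aspen 2, aspen 3, the wheat straw libraries, Avicel 2 or Avicel 3, with adjusted p from 0.051 to 0.119 by edgeR, and with the 12 substrate libraries only (adjusted p = 0.0504, edgeR). Gene 1666412 was 3.98-fold higher on Avicel (-1.99, SE 0.65, adjusted p = 0.0384, edgeR) with overlapping groups. Its call was lost without maltose 2, aspen 2, aspen 3, any wheat straw library, Avicel 2 or Avicel 3 (adjusted p from 0.0504 to 0.13, edgeR). It was also lost with scaling by library totals, with the 12 substrate libraries only and with only the 6 libraries compared (adjusted p from 0.0525 to 0.0821, edgeR). Gene 1614653 was 3.69-fold higher on Avicel (-1.88, SE 0.50, adjusted p = 0.0162, edgeR), with 544, 199 and 211 normalised counts on Avicel and 106, 67 and 83 on wheat straw. Without wheat straw 2, wheat straw 3 or Avicel 1 its adjusted p was 0.0588 to 0.0716 (edgeR), and without Avicel 1 the difference was 2.35-fold. The call was lost as well without the 3 libraries that stood apart (adjusted p = 0.0627, edgeR).

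The contrast between aspen and wheat straw had the fewest called members, 9 of 59 (15.3%, beside 13% of all genes). Aspen was higher in 5 (5.89% of all genes) and wheat straw in 4 (7.14% of all genes). The largest difference was again that of 1598431, which was 22.3-fold higher on wheat straw (log2 fold change of aspen over wheat straw -4.48, SE 1.00, adjusted p = 0.0054, edgeR) and 8.36-fold higher without wheat straw 1. Gene 1113266 was 3.83-fold higher on aspen (1.94, SE 0.36, adjusted p = 0.0018, edgeR), with 98, 70 and 90 normalised counts against 24, 24 and 19. The count was 4 without aspen 1 (6.78%, beside 10.5% of all genes) or wheat straw 1 (beside 11.3%), and 5 without aspen 2 (8.47%, beside 9.55%) or wheat straw 2 (beside 10.3%). Without the 3 libraries that stood apart it was 12 (20.3%, beside 15.8%).

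Genes 1636119 and 1562258 were near the threshold in this contrast. Gene 1636119 was 2.90-fold higher on wheat straw (log2 fold change -1.54, SE 0.52, adjusted p = 0.0418, edgeR), and 1562258 was 2.47-fold higher on aspen (1.30, SE 0.46, adjusted p = 0.0497, edgeR). The call of 1636119 was lost without any aspen or wheat straw library, Avicel 2 or Avicel 3 (adjusted p from 0.0512 to 0.119, edgeR), and with library totals or the 12 substrate libraries only (0.0573 and 0.0544). That of 1562258 was lost without any maltose or wheat straw library, aspen 2, aspen 3 or xylan-galactomannan 1 (adjusted p from 0.0508 to 0.159, edgeR), and with no filter or the 12 substrate libraries only (0.0534 and 0.0674).

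The split between directions depended on the scaling of the libraries. TMM factors ranged from 0.739 to 1.31, and under scaling by library totals the median over all genes tested shifted, in log2 fold change, from 0.02 to 0.48 between aspen and Avicel, from -0.02 to 0.42 between aspen and xylan-galactomannan, from 0.01 to 0.39 between wheat straw and Avicel, and from -0.04 to 0.32 between wheat straw and xylan-galactomannan. On that scale the called members split into 11 higher on aspen and 3 on Avicel, 6 on aspen and 6 on xylan-galactomannan, 6 on wheat straw and 2 on Avicel, and 3 on wheat straw and 6 on xylan-galactomannan. Of all called genes, 81.1%, 74.5%, 85.4% and 72.9% were higher on the first substrate of these contrasts on that scale. Between aspen and wheat straw the split of members was 4 to 2 (52.7% of all called genes higher on aspen), and between Avicel and xylan-galactomannan 5 to 11 (31.98% higher on Avicel). The last contrast, whose median over all genes moved only from -0.05 to -0.07, thus kept its majority on xylan-galactomannan under both scalings. That majority was close to the one over all called genes. In the main fit 35% of member calls and 33.2% of all calls were higher on Avicel. Under library totals these shares were 31.3% and 31.98%. Over the 59 genes the median moved from -0.03 to 0.38 between aspen and Avicel and from -0.29 to 0.14 between aspen and xylan-galactomannan. It moved from -0.36 to 0.02 between wheat straw and Avicel and from -0.64 to -0.26 between wheat straw and xylan-galactomannan. Between Avicel and xylan-galactomannan it moved from -0.39 to -0.44, and between aspen and wheat straw from 0.32 to 0.39.

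Of the 57 genes that passed the filter in the substrate libraries, 23 were called in none of the 6 contrasts and not among the 4 substrates as a whole. Of all genes tested, 50.5% were called in none. The most even were 1599723, 1651362, 1597969 and 226433, whose highest substrate mean exceeded the lowest 1.26-fold to 1.43-fold. Gene 1599723 held 9088, 9168 and 5741 normalised counts on maltose and 1901 to 3130 in the 12 substrate libraries. Gene 1651362 held 2550, 2458 and 1801 on maltose and 379 to 564 on the substrates. A missing call does not show that the levels were equal. In 1651362 the Avicel libraries (515 to 564) lay above those of wheat straw (408 to 468) and xylan-galactomannan (379 to 435). Over all 59 genes, the highest and lowest substrate means differed by a median of 2.76-fold, wider than the 1.999-fold over the genes with a maltose mean of at least 100. The span exceeded 5-fold in 13 genes, and the share of all genes with such a span was not computed. The 13 include 1545845, 1543056, 1586820 and 1657241, the 4 genes with a substrate library at or under 3 counts. None of these 4 was called in any contrast, and their spans are uncertain.

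The gene models were close in length to those of other genes. The 59 models ranged from 252 to 4194 bases, with a median of 1233 against 1278 over all genes of the table. The longest were 1597793 (4194 bases), 1759031 (3374) and 1680396 (3333), and the shortest 1545845 (252), 1543056 (264) and 1541771 (273). Genes 1585790, 1677592 and 1677594, noticed only when lengths were compared, all had a length of 723 bases, and 1590736 and 1598431 both had 1493. Whether these models are near-identical copies that share reads was not tested, and their levels are uncertain to that extent. They differed in level, with maltose means of 851, 815 and 307 normalised counts for the models of 723 bases and of 1628 and 67226 for those of 1493 bases.

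None of the 59 genes was among the 166 genes of the study's lists, which hold its genes selected on aspen (91), its genes selected on wheat straw (88) and those of 3 nodes of its transcriptome map (8, 11 and 11). The lists for aspen and wheat straw were chosen by the study for a higher level than on maltose in the libraries analysed here, so this absence from them follows from both choices. The 166 genes are also a small part of the 11782 in the table. An absence from lists of this size, those of the nodes included, is not a result about the 59 genes.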

How the data were processed

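For the deposited count table the authors trimmed paired reads, aligned them with TopHat2 and counted reads per gene model with HTSeq. For tool versions and the strand setting, nothing is given in the sources used here. A deposited column of another kind gives the length of each model in bases. The normalised table held a signal that the authors made by dividing counts by 1 size factor per library (DESeq 1.5 per the labels). Of per-library columns, 0 were left unmatched to a sample.

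The rule was applied to the normalised table. Contrasts between substrates used counts as deposited for all 15 libraries, with edgeR 4.0.16 in R 4.3.3 (filterByExpr, TMM, robust quasi-likelihood fit, 1 mean per group, common biological coefficient of variation 0.281). The scripts were tested on simulated data. The members, lists, tests and named genes were chosen with earlier results of these data known. Named genes are the highest levels, the largest and smallest ratios, those nearest the rule, the largest called change in each direction of a contrast (2 genes), the evenest and most uneven over substrates, the extremes of spread on maltose, and the longest and shortest. Alternatives were DESeq2 1.42.0, other scalings, filters and thresholds, halved counts (66.5 to 76.5% of the counts from 1 to 20 were even per library), a replicate block, subsets of libraries and each library left out. A count of 3 was taken as the floor, for counting error only. A reference annotation was of another strain and matched 0 protein IDs.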

Additional observations from a re-analysis of the deposited data

How the results depend on the processing

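The rule gave 59 genes with TMM-scaled counts, all of them shared, and 51 (50 shared) with library totals. It gave 29 genes with a fold of 4, 98 (58 shared) without maltose 3 and 107 (58 shared) without the 3 libraries that stood apart. With single libraries left out it gave 53 to 98 genes, with 45 of the 59 shared without maltose 1. Called members numbered 15 between aspen and wheat straw (27.3%, beside 16.1% of all genes) and 12 between Avicel and xylan-galactomannan (21.8%, beside 8.17%) when only the 6 libraries compared were fitted. With single libraries left out, they ranged from 4 to 11 (aspen against wheat straw), 10 to 14 (aspen against Avicel), 13 to 19 (aspen against xylan-galactomannan), 2 to 14 (wheat straw against Avicel), 8 to 15 (wheat straw against xylan-galactomannan), 12 to 23 (Avicel against xylan-galactomannan) and 26 to 34 (among the 4 substrates). In these 15 fits the share of members exceeded that of all genes in 3, 0, 11, 11, 8, 15 and 12, in the same order. The cause of these shifts was not tested. Of 183 alternative values of these counts, 166 stayed within 1.5 times the main count. Of 551 alternative values for the 24 named log2 fold changes, 0 reversed and 55 lost the call. DESeq2 gave no adjusted p for 1569640 between aspen and xylan-galactomannan.

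Replicate numbers do not pair the cultures by any label. Deviations from the group means correlated at a median r of -0.014 for libraries of the same number (30 pairs, 3 above 0.1). For different numbers the median was 0.013 (60 pairs, 11 above 0.1). The ranges were wide, at -0.367 to 0.402 and -0.408 to 0.418. Maltose 3, Avicel 1 and xylan-galactomannan 1 deviated together, with r of 0.309 to 0.398 between them. So did maltose 1, Avicel 2 and xylan-galactomannan 2, with r of 0.301 to 0.418. Deviations from a group mean cancel out within the group, so this pattern is not independent of the preceding one. What these libraries share was not tested. With the replicate number as a block, 8, 10, 18, 10, 11 and 16 members were called in the 6 contrasts, in the order just given, and 29 among the 4 substrates. These were 13.6, 16.9, 30.5, 16.9, 18.6, 27.1 and 49.2% of members, beside 12.6, 26.8, 25.4, 12.2, 20.7, 12.7 and 44.9% of all genes. The calls of 1569640 between aspen and xylan-galactomannan and of 1666412 between wheat straw and Avicel were lost under the block (adjusted p = 0.051 and 0.075, edgeR). Levels at or under 3 counts were not resolved at this depth.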
